A study of Mus musculus with 6 samples.

Results

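Among fibroblasts of the mouse aorta, 4195 barcodes had their largest marker sum over C7, Penk, Cxcl14, Gdf10, Col6a5 and Steap4, which was 35.9% of the 11669 fibroblasts gated from 60871 barcodes. These cells are called Gdf10/Penk fibroblasts here, after the gene that led the sum most often, Gdf10, and Penk, which was furthest above both other classes among the genes seen in most of these cells. The gate asked for at least 500 genes, at most 20% mitochondrial UMIs (unique molecular identifiers, counted transcripts) and at least 1 Pdgfra UMI. It also asked for at least 0.5% of UMIs in Dcn, Lum, Serpinf1 and Dpt, under 1.5% in Acta2, Tagln, Myh11 and Cnn1, at most 1 Tbx20 UMI and at most 3 UMIs over the interferon genes Ifit3, Rsad2, Cxcl10 and Ifit1. A gated cell was a Gdf10/Penk fibroblast if its sum reached 3 UMIs and was larger than a sum over Fmod, Dio2, Hhip and Angptl7 and a sum over Pi16, Cd248, Has2, Pla1a and Smpd3. Cells led in the same way by the second sum (2333, called Fmod fibroblasts) or the third (4099, called Pi16 fibroblasts) served for comparison, and 1042 gated cells had no leading sum of 3 UMIs.

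The cells came from aortic tissue of mice with the genotypes Best3SMKO (3 samples) and Best3FL/FL (3 samples), dissociated and sequenced in 10x Genomics droplets. By the label, Best3SMKO aortas lack Best3, a bestrophin gene, in smooth muscle, and Best3FL/FL aortas carry the floxed gene, so both genotypes carry floxed Best3. The Cre driver, age and sex are not given in the labels used here. The deposited matrix separates 6 libraries, numbered 1 to 6 after the barcode suffix, but no label ties a library to a sample, so no genotype comparison was made and no p-value is given.

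Fibroblasts of the vessel wall lie mostly in the adventitia and in the connective tissue around it, where they make collagen and elastic fibre proteins and signal to immune, endothelial and nerve cells. Penk encodes proenkephalin, the precursor of the enkephalin opioid peptides, C7 a terminal component of the complement pathway, and Cxcl14 a secreted chemokine. Gdf10 is a secreted ligand of the TGF-beta family close to BMP3, Bmper a secreted protein that binds BMPs, Col6a5 a chain of collagen VI, and Steap4 a membrane enzyme that reduces iron and copper. Fmod encodes fibromodulin, a collagen-binding proteoglycan, and Pi16 is a gene known from fibroblasts with progenitor-like features in many mouse tissues.

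Gdf10/Penk fibroblasts had a median of 7028 UMIs per cell, and library medians lay between 5112 and 8238. Fmod fibroblasts had 7920, Pi16 fibroblasts 8100 and the 1042 cells without a leading sum 3787. The libraries held 7475 to 16269 barcodes each, and library 5 was the largest and shallowest. Scrublet called 1.60% to 7.65% of Gdf10/Penk fibroblasts per library doublets, with library 5 the highest, and these cells were kept. Barcode sequences recurred between libraries in 414 cases, and 2 of them were Gdf10/Penk fibroblasts in more than 1 library. Libraries 1, 3 and 4 held cells with Xist alone as well as cells with Y-linked UMIs alone.

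Markers of other cell types were summed in each class. Levels are given in CPM, the counts of a gene for each 1e6 counts of the class, and 9 general fibroblast markers summed to 37550.3 CPM in Gdf10/Penk fibroblasts, 37948 in Fmod and 33015 in Pi16 fibroblasts. Pdgfra, Dcn, Lum, Serpinf1 and Dpt are among the 9 and were asked for by the gate, so this sum is a description. Dcn alone gave 21454 CPM of it in Gdf10/Penk fibroblasts. The 7 smooth muscle markers, 4 of which the gate capped, summed to 1448, 1582 and 1408 CPM in the same order of classes. The 6 endothelial markers summed to 121 CPM in Gdf10/Penk fibroblasts (68.3 to 170 over libraries), the 7 macrophage markers to 194 (43.5 to 298) and the 6 Schwann cell markers to 96.0 (63.9 to 123). The 6 pericyte markers summed to 502 CPM in Gdf10/Penk fibroblasts, against 568 in Fmod and 400.2 in Pi16 fibroblasts, and the potassium channel gene Abcc9 made up 292 CPM of them. The 5 chondrocyte or tendon markers summed to 304 CPM, against 323 and 174, of which the matrix gene Comp made up 299.9. The 5 adipocyte markers summed to 12.5 CPM with 1 of 5 at 0, against 2.60 in Fmod and 2.75 in Pi16 fibroblasts. Car3 alone gave 11.1 of the 12.5 CPM, and Adipoq and Plin1 stood at 0.820 and 0.492. Mesothelial markers summed to 2.30 CPM and cycling markers to 8.07. RNA released from other cells, or doublets, could add such counts, and their part in the results was not tested.

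The gene sum chose these cells, so their levels of the 6 genes are a description. Gdf10 stood at 1140 CPM in Gdf10/Penk fibroblasts, against 455 in Fmod and 334 in Pi16 fibroblasts. Penk stood at 519 CPM, against 41.1 and 77.7. C7 stood at 388 CPM, against 171 and 177, and Steap4 at 305, against 115 and 75.6. Cxcl14 (70.4 CPM, against 0.976 and 3.15) and Col6a5 (73.9 CPM, against 1.79 and 6.56) were the scarcest of the 6 in the cells chosen by them.

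To see how each gene stood in cells that it had not helped to choose, the classes were drawn again 6 times with 1 gene left out of the sum. Penk remained the clearest of the abundant genes. It had 385, 458 and 666 CPM (lowest, median and highest library) in cells chosen without it, against 32.3, 57.6 and 112 CPM in Fmod fibroblasts and 59.0, 114 and 184 CPM in Pi16 fibroblasts. No library of Gdf10/Penk fibroblasts overlapped either class, and the pooled level was 7.76 times that in Fmod and 4.01 times that in Pi16 fibroblasts. Steap4 also separated without overlap, at 244, 281 and 352 CPM against 97.7, 136 and 154 in Fmod and 66.9, 94.4 and 113 in Pi16 fibroblasts. These are ratios of 2.14 and 3.14.

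C7 and Gdf10, when left out of the sum, differed less between the redrawn classes. C7, when left out of the sum, had 231, 361 and 459 CPM in Gdf10/Penk fibroblasts, against 149, 205 and 293 in Fmod and 146, 226 and 304 in Pi16 fibroblasts. It was higher in 6 of 6 libraries, by 1.66 and 1.65 times, but the ranges over libraries overlapped. Gdf10 had 717, 918 and 1107 CPM in the 2266 cells chosen without it. That was 1.34 times the pooled Fmod level, with overlapping ranges (604 to 867 CPM), and 1.93 times the pooled Pi16 level, without overlap (423 to 543 CPM). Leaving out Gdf10 removed the most cells, since 4195 met the full rule. Cells that dropped out could enter the other redrawn classes with their Gdf10 counts. Pooled Gdf10 was 701 CPM in the redrawn Fmod and 487 in the redrawn Pi16 fibroblasts, against 455 and 334 under the full rule. The redraw thus raised the levels that Gdf10 was set against, and its ratios are not on a par with those of genes that moved fewer cells.

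Cxcl14 and Col6a5 had the widest ratios and the least even levels. Cxcl14 had 31.2, 53.6 and 103 CPM in cells chosen without it, against 0, 0.974 and 8.19 in Fmod and 2.94, 6.79 and 36.2 in Pi16 fibroblasts, and was higher than Pi16 fibroblasts in 5 of 6 libraries. In library 2, where it was at 31.2 CPM, Pi16 fibroblasts had 36.2. Col6a5 had 9.20, 56.6 and 116 CPM, against 0.913, 1.46 and 4.35 in Fmod and 5.70, 9.63 and 56.1 in Pi16 fibroblasts. Its exception was library 6, with 9.20 CPM in Gdf10/Penk and 56.1 in Pi16 fibroblasts. Here too, cells that dropped out could enter the other redrawn classes with their counts. Pooled Cxcl14 was 10.5 CPM in the redrawn Pi16 fibroblasts, against 3.15 under the full rule, and pooled Col6a5 13.6, against 6.56. The exceptions rest on 168 Cxcl14 and 167 Col6a5 UMIs in Pi16 fibroblasts. Under the full rule, single Gdf10/Penk fibroblasts held up to 135 and 149 UMIs of these genes. Bmper was not in the sum, and had 40.1, 57.8 and 80.3 CPM in Gdf10/Penk fibroblasts, against 9.58, 12.9 and 23.9 in Fmod and 10.7, 15.7 and 20.7 in Pi16 fibroblasts. All 6 libraries of Gdf10/Penk fibroblasts lay above all libraries of both classes. The data thus went partly against the name C7, Penk and Cxcl14 fibroblasts, since Penk, Steap4 and Bmper stood apart, C7 overlapped and Cxcl14 was in few cells. Gdf10 overlapped the redrawn Fmod fibroblasts too, at a ratio of 1.34 against 1.66 for C7, though leaving it out moved the most cells. Its place in the name used here says only that it led the sum.

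**Figure D1:**
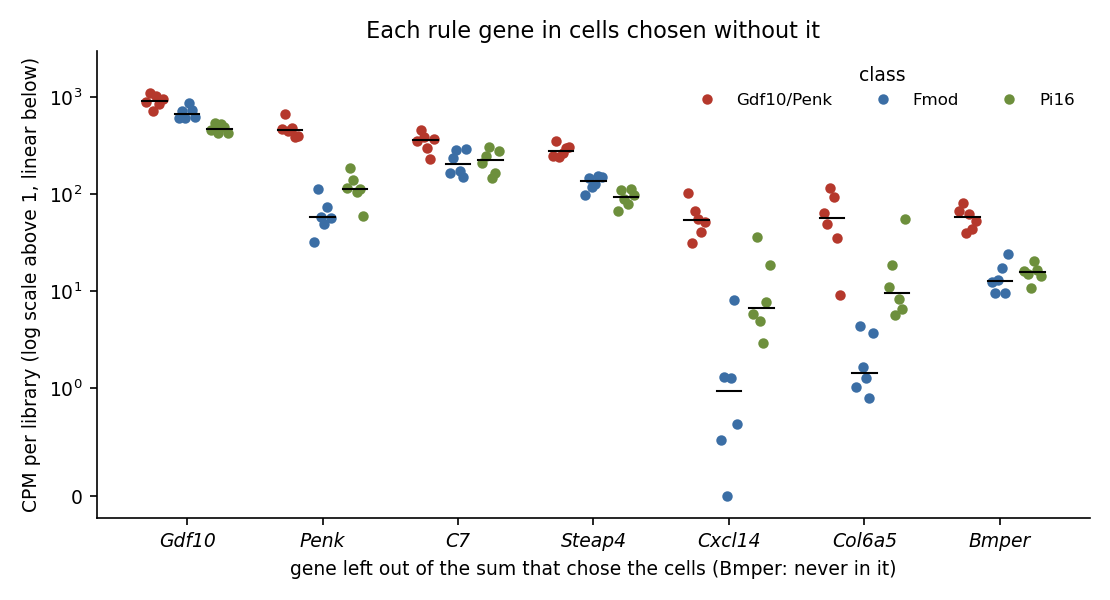
Level of each gene of the sum, and of Bmper, in fibroblast classes drawn without that gene. Each point is 1 of 6 libraries in CPM (log scale above 1, linear below) and each bar is the median over libraries. Penk, Steap4 and Bmper in Gdf10/Penk fibroblasts lie above every library of Fmod and Pi16 fibroblasts, while C7 at 231 to 459 CPM overlaps both.

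Most Gdf10/Penk fibroblasts carried UMIs of Gdf10, Steap4, C7 or Penk, and few carried Cxcl14 or Col6a5. Gdf10 was seen in 92.3% of them, against 66.1% of Fmod and 62.0% of Pi16 fibroblasts. Penk was seen in 63.6%, against 18.0% and 28.2%, and C7 in 65.1%, against 48.1% and 51.4%. Cxcl14 was seen in 6.79% (exact 95% binomial interval 6.05% to 7.60%), against 0.600% and 1.41%, and Col6a5 in 6.44%, against 0.900% and 2.54%. For comparison, 6370 endothelial cells were gated by their markers, at a median of 4726 UMIs. The gate also left out barcodes with Pdgfra UMIs or with the share of Dcn, Lum, Serpinf1 and Dpt that the fibroblast gate asked for. In these endothelial cells the shares were 5.20% for Gdf10, 1.98% for Penk, 1.11% for C7, 0.220% for Cxcl14 and 0.173% for Col6a5. Barcodes with stray fibroblast RNA were thus partly removed beforehand, so shares in endothelial cells do not give its level in other barcodes. Thinned to 3000 UMIs a cell, which left out 444 shallower Gdf10/Penk fibroblasts, the shares were 85.2% for Gdf10, 48.9% for Penk, 50.5% for C7 and 5.07% for Cxcl14. Bmper was seen in 20.1% of Gdf10/Penk fibroblasts, against 8.19% of Fmod, 9.95% of Pi16 fibroblasts and 0.251% of endothelial cells. The sums that chose the classes hold these genes, Bmper excepted. Differences in their shares between classes thus follow from the rule and are a description. Intervals cover counting error only.

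Over all 10354 gated cells deep enough to thin, whatever their class, Bmper went with Cxcl14 and Penk. Bmper was seen in 30.1% of cells with a Cxcl14 UMI, against 6.74% of cells without one, and in 25.3% of cells with Col6a5, against 6.85% of those without. Penk was seen in 56.6% of cells with Cxcl14, against 25.8% of cells without it, and in 58.2% of cells with Col6a5, against 25.7% of those without. Of 226 cells with Cxcl14, 10 also had Col6a5, which was 4.42% (interval 2.14% to 7.99%), against 2.12% of cells without Cxcl14.

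Gdf10/Penk fibroblasts were 30.5% (lowest library), 36.2% (median) and 44.5% (highest) of gated fibroblasts. Library 2 was the highest and library 6 the lowest. Fmod fibroblasts made up 15.3%, 18.4% and 30.7%, highest in library 6, and Pi16 fibroblasts 30.4%, 33.9% and 38.8%. The intervals of libraries 2 (42.1% to 47.0%) and 6 (28.0% to 33.2%) did not meet. Since libraries could not be tied to a genotype, these shares say nothing of Best3.

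**Figure D2:**
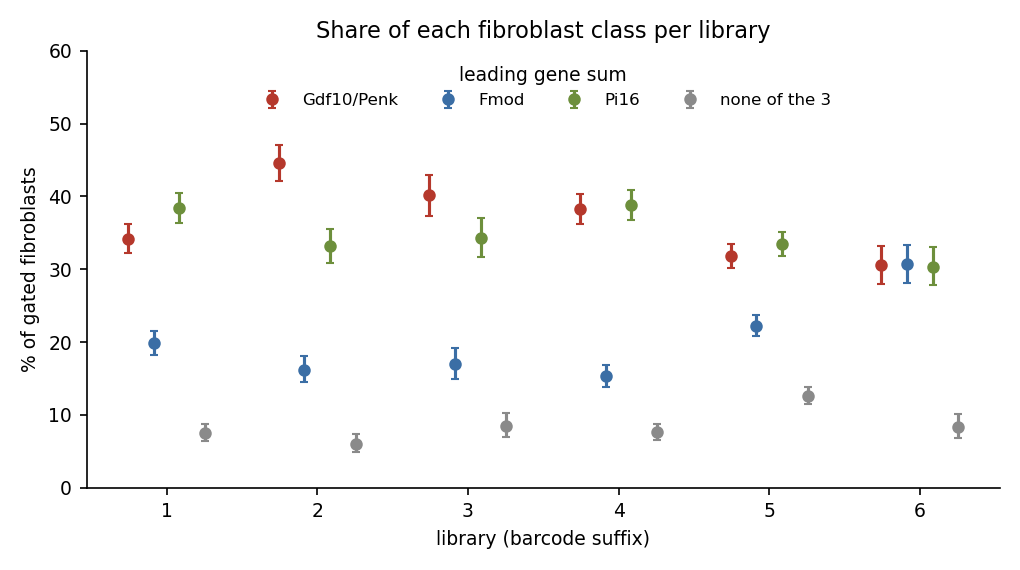
Share of gated fibroblasts in each class by library, with exact 95% binomial intervals that cover counting error only. Gdf10/Penk fibroblasts run between 30.5% in library 6 and 44.5% in library 2, and Fmod fibroblasts reach 30.7% in library 6.

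The rule drew a line through a continuous range of cells. Of the gated cells, 8647 had a sum of at least 3 UMIs, and 4136 of them were left out because another sum was larger and 316 because of a tie. Among the 4195 Gdf10/Penk fibroblasts, 31.6% also had 3 or more UMIs of the Fmod sum and 54.9% of the Pi16 sum, whereas 8.80% had none of either. The sum led by 1 UMI in 314 cells and was at least 2 times both others in 2866 (68.3%). Just inside the threshold were 181 cells with 3 UMIs, and just outside were 116 cells with 2 UMIs that led the other sums. Bmper stood at 10.3 CPM in the 116 cells outside, 20.6 in the 181 inside, 43.8 in the 1431 cells with 11 to 20 UMIs and 93.5 in the 1258 cells with more than 20. The estrogen sulfotransferase gene Sult1e1 stood at 18.1, 39.7, 38.4 and 168 CPM in the same order, and the chemokine gene Cxcl13 at 25.8, 10.3, 45.1 and 182 CPM. In cells with 4 to 5 and 6 to 10 UMIs, Bmper stood at 23.8 and 27.1, Sult1e1 at 48.8 and 27.3 and Cxcl13 at 6.55 and 31.8 CPM. Sult1e1 and Cxcl13 thus did not rise steadily. The values outside rest on 4 Bmper, 7 Sult1e1 and 10 Cxcl13 UMIs. Median depth was 2266 UMIs outside and 9239.5 in cells with more than 20.

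The classes were next compared over all genes by size. A gene entered if it reached 30 CPM in either class, with 29 genes of the rule and gate left out. It was called if its pooled ratio, with 5 CPM added to both sides, was at least 2 (or at most 0.5). The direction also had to be the same in 6 of 6 libraries. Genes that go with the sums were in effect chosen with the cells, so these counts describe the classes and support nothing. Against Fmod fibroblasts, 61 of 5211 genes were higher in Gdf10/Penk fibroblasts (1.17%) and 39 were lower (0.748%). Against Pi16 fibroblasts, 40 of 5168 were higher (0.774%) and 46 lower (0.89%). The comparisons share the Gdf10/Penk cells. In 5029 genes that entered both, 12 were higher against both (0.239%) and 4 lower against both (0.0795%).

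Among the 12 genes above both classes were Sult1e1, Cxcl13, Igfbp3, Sparcl1, Bmper, Aox3, Ifi203, Nmb, Enpp2, Ggt5 and Thsd7a. Sult1e1, which inactivates estrogens by adding sulfate, had 42.0, 84.1 and 150 CPM (lowest, median and highest library) in Gdf10/Penk fibroblasts, against 0, 0.859 and 4.35 in Fmod and 12.9, 15.8 and 42.0 in Pi16 fibroblasts. Its ranges met those of Pi16 fibroblasts at the edge. Cxcl13, a chemokine that attracts B cells, had 53.5, 80.5 and 155 CPM, against 0, 1.39 and 9.24 in Fmod and 8.47, 17.3 and 30.6 in Pi16 fibroblasts, with no overlap. Sparcl1, a matricellular protein of the SPARC family, was the most abundant of the 12, at 471, 584 and 623 CPM, against 82.2, 140 and 176 in Fmod and 143, 206 and 236 in Pi16 fibroblasts.

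Igfbp3, a carrier of insulin-like growth factors, had 18.3, 54.6 and 90.5 CPM in Gdf10/Penk fibroblasts, against 10.0, 14.7 and 28.4 in Fmod and 3.73, 11.8 and 14.4 in Pi16 fibroblasts, so its lowest library lay within the Fmod range. Among the enzymes, Enpp2 (autotaxin, which makes lysophosphatidic acid) stood at 39.2 CPM pooled, against 10.6 and 16.6, and overlapped both classes over libraries. Ggt5 (a gamma-glutamyl transferase) stood at 39.9, against 10.8 and 15.5, and Aox3 (an aldehyde oxidase) at 56.1, against 11.2 and 20.4. The neuropeptide gene Nmb (neuromedin B) stood at 32.8 CPM, against 7.32 and 11.7, and Thsd7a at 62.2, against 21.6 and 24.4. The 4 genes below both classes code for matrix proteins: Ccn5 (118 CPM, against 679 in Fmod and 312 in Pi16 fibroblasts), Ltbp2 (22.3, against 95.1 and 56.3), Col12a1 (23.0, against 75.7 and 54.9) and Aspn (asporin, 147, against 312 and 347).

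**Figure D3:**
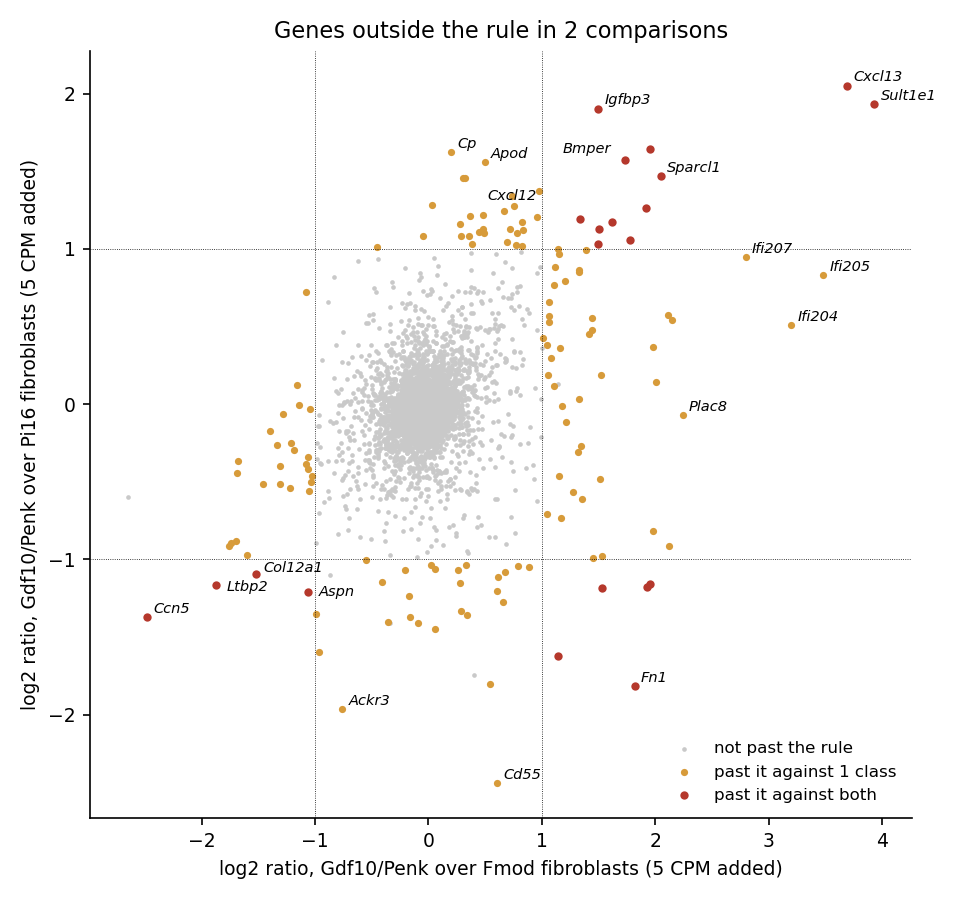
Each point is a gene, with its log2 ratio (5 CPM added) of Gdf10/Penk over Fmod fibroblasts across and over Pi16 fibroblasts up. Dotted lines mark ratios of 2 and 0.5, orange genes passed the size rule against 1 class and red genes against both. Sult1e1 and Cxcl13 lie at the upper right, Ccn5 at the lower left, and Fn1 is above Fmod and below Pi16 fibroblasts.

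Against Fmod fibroblasts, the 12 largest ratios among the higher genes included 4 genes of the p200 family, which lie together on chromosome 1 and code for interferon-inducible, DNA-binding proteins of the nucleus and cytoplasm. In the 6 p200 genes with a measurable level, Gdf10/Penk fibroblasts had no library that overlapped Fmod fibroblasts. The share of all genes that part these classes in the same way is not given, so this is a description of genes picked after their values were seen. Ifi207 had 144, 203 and 279 CPM in Gdf10/Penk fibroblasts, against 15.2, 27.2 and 34.7 in Fmod and 64.0, 91.0 and 161 in Pi16 fibroblasts. Ifi204 had 86.2, 117 and 153 CPM, against 4.38, 8.29 and 12.1 in Fmod and 48.8, 70.0 and 132 in Pi16 fibroblasts. Ifi205 had 37.0, 78.9 and 104 CPM, against 0, 2.17 and 5.42 in Fmod and 13.5, 38.5 and 61.3 in Pi16 fibroblasts. The pattern was a gap to Fmod fibroblasts and a smaller difference, mostly with overlap, to Pi16 fibroblasts.

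Ifi203 had 94.97, 122 and 138 CPM in Gdf10/Penk fibroblasts, against 24.8, 27.3 and 41.8 in Fmod and 32.5, 45.9 and 79.5 in Pi16 fibroblasts. Ifi203 and Mndal (61.0, 80.8 and 90.6 CPM, against 20.6, 28.9 and 38.6 in Fmod and 26.1, 37.9 and 49.96 in Pi16 fibroblasts) were also above every library of Pi16 fibroblasts. Ifi211 had 43.1, 47.3 and 65.9 CPM, against 3.71, 8.38 and 10.9 in Fmod and 23.3, 28.6 and 43.8 in Pi16 fibroblasts. The other 7 family genes looked up (Aim2, Ifi206, Ifi208, Ifi209, Ifi213, Ifi214 and Ifi202b) were at 0.886 CPM or less in Gdf10/Penk fibroblasts. The family was looked at as a group after its values had been seen, its paralogs are alike enough that counting could split their reads, and the gate had capped 4 other interferon genes.

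**Figure D4:**
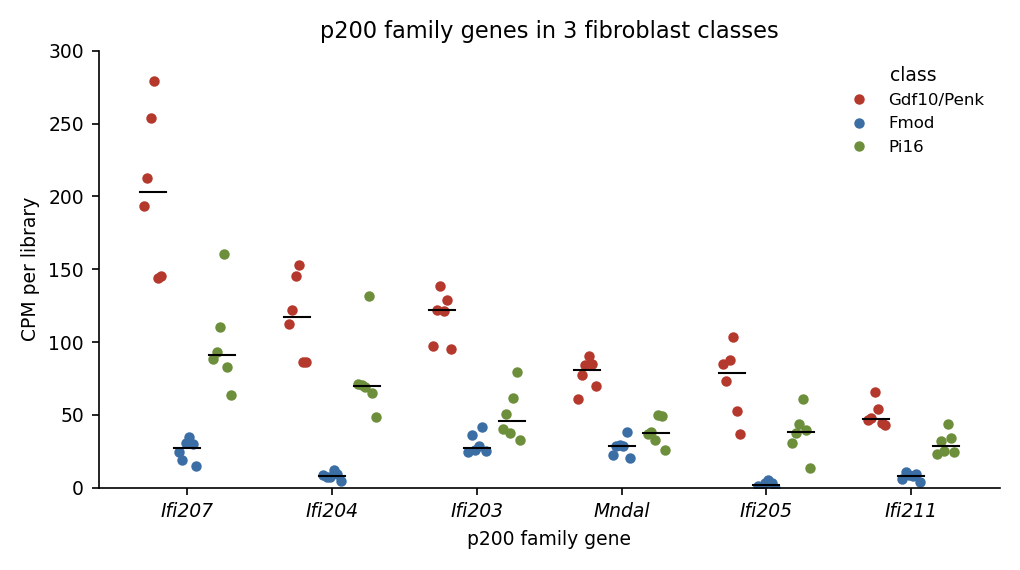
CPM of 6 p200 family genes in each of 6 libraries, by fibroblast class, with the median as a bar. Gdf10/Penk fibroblasts lie above Fmod fibroblasts for every gene, from 86.2 to 153 CPM against 4.38 to 12.1 CPM for Ifi204, with Pi16 fibroblasts between them.

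The 150 bases before the RefSeq start of 5 of these genes are shown because they move together, with the core of the interferon-stimulated response element (GAAA, any 2 bases, GAAA, searched on both strands) in capitals. All are on the minus strand of chromosome 1 in GRCm38.p6 and are written 5′ to 3′ in the direction of the gene.
Ifi205, chr1:174031756-174031905: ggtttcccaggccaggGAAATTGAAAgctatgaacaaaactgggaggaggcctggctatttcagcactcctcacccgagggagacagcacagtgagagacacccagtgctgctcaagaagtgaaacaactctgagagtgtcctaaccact
Ifi207, chr1:173741810-173741959: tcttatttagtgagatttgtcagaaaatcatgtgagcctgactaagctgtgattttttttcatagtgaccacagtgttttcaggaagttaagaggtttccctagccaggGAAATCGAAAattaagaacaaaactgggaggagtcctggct
Ifi211, chr1:173913047-173913196: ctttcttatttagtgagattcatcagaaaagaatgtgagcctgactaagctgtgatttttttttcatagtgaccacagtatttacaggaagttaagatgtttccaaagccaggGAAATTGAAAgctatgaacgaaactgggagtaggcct
Ifi203, chr1:173942493-173942642: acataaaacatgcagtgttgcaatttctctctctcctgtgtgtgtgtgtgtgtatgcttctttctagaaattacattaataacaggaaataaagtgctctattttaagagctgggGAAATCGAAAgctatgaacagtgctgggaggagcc
Mndal, chr1:173880188-173880337: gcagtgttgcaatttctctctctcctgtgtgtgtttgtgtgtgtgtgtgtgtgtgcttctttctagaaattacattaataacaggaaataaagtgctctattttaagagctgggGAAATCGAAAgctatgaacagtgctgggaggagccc
The core was found once in each window, 134 bases before the start in Ifi205 and 41, 37, 35 and 36 bases before it in Ifi207, Ifi211, Ifi203 and Mndal. No promoter entry was found for Ifi204. Ifi203 and Mndal have 2 start sites each in RefSeq, and the site shown is one that holds the core. The other Ifi203 site has no core in its window, so the Ifi203 window was picked for the core. In the same window of all 32544 mouse promoters, the core was found in 1.60%. Those promoters were not picked for the core, so the windows shown cannot be set against this share. The windows of Ifi203 and Mndal share a run of 96 identical bases and those of Ifi207 and Ifi211 one of 31, so the windows are not independent of each other. The match describes these letters only.

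Beyond the p200 genes, the largest ratios over Fmod fibroblasts were those of Sult1e1 and Cxcl13, then Plac8 (71.1 CPM, against 11.1 in Fmod fibroblasts), Hp (haptoglobin, 30.02 against 2.87), Cadm3 (a cell adhesion molecule, 30.6 against 3.20), Sparcl1, Aldh1a3 (a retinoic acid-making enzyme, 50.9 against 8.90) and Ly6c1 (366 against 88.7). Hp was no longer called after thinning to 3000 UMIs (ratio 3.82), with a limit of 1000 genes (4.44) or 10% mitochondrial UMIs (4.40), or without library 1 (4.31) or 2 (3.62), and Cadm3 without library 2 (3.999) or 3 (4.28). Several were no higher than in Pi16 fibroblasts, which had 74.9 CPM of Plac8, 62.0 of Cadm3 and 647 of Ly6c1. Gsn, which encodes the actin-severing protein gelsolin, was the most abundant gene called, at 16318, 17524 and 19975 CPM in Gdf10/Penk fibroblasts, against 7553, 8426 and 10553 in Fmod fibroblasts. The 8 largest ratios among the lower genes were those of Ccn5, Ltbp2, AI507597, Pex5l (14.8 CPM against 63.5), Thbs2 (thrombospondin 2, 47.9 against 174), Fibin (51.4 against 184), Prss12 (14.4 against 57.9) and the transcription factor Pax1 (29.9 against 107).

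Against Pi16 fibroblasts, the largest ratios among the higher genes included, beside Cxcl13, Sult1e1, Igfbp3 and Bmper, those of Cp, Apod, Sparcl1, Tmem176a, Tmem176b, Ccbe1 and C2. Cp (ceruloplasmin, which carries copper and oxidises iron) had 437, 483 and 672 CPM in Gdf10/Penk fibroblasts, against 123, 170 and 212 in Pi16 fibroblasts. It did not part Gdf10/Penk from Fmod fibroblasts, which had 393, 469 and 508 CPM. Ccbe1, a secreted protein needed for lymphatic growth, had 91.3, 108 and 132 CPM, against 35.4, 38.8 and 43.4 in Pi16 fibroblasts. The membrane proteins Tmem176a and Tmem176b stood at 144 and 214 CPM, against 49.2 and 74.9. Apod, a lipid carrier, was called at 892 CPM against 300, but 66 cells held most of its UMIs. Without barcodes of 50 or more Apod UMIs it stood at 298 CPM (275 to 380 over libraries), against 176 (130 to 239), and was no longer called.

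The 8 largest ratios among genes lower than in Pi16 fibroblasts were those of Mrgprg, Cd55, Cmah, Ackr3, Wnt2, Efhd1, Fn1 and Sema3c. Cd55, which shields cells from complement, had 23.3, 29.99 and 43.5 CPM in Gdf10/Penk fibroblasts, against 152, 164 and 254 in Pi16 fibroblasts. Ackr3, a scavenging receptor for Cxcl12, had 85.7, 88.6 and 128 CPM, against 308, 398 and 498. Fn1, which encodes fibronectin, had 358, 629 and 921 CPM, against 1008, 1922 and 3948 in Pi16 fibroblasts, and was above the 136, 161 and 220 CPM of Fmod fibroblasts. Fn1, Procr, Adgrd1, Lrrn4cl and Ugdh were called higher than in Fmod and lower than in Pi16 fibroblasts. Mrgprg, a gene for a Mas-related G protein-coupled receptor, stood at 0.230 CPM against 30.9, where the 6 libraries of Pi16 fibroblasts spread between 2.71 and 81.1 CPM, and was not called after thinning or without library 4. Wnt2 lost its call after thinning (ratio 0.338).

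The ligand, receptor and matrix genes were then read in lists, each against the median ratio of all genes, which was 0.973 over Fmod and 0.977 over Pi16 fibroblasts. Of all genes, 1.17% were called higher and 0.748% lower over Fmod, and 0.774% higher and 0.89% lower over Pi16 fibroblasts, and with lists this short a single call is above these shares. Of 14 genes known from fibroblasts of parenchymal niches in other mouse tissues, 2 were called higher over Fmod (Sparcl1 and the lipoprotein lipase gene Lpl, 444 CPM against 166) and 5 over Pi16 fibroblasts. The 5 were Sparcl1, Apod, Tmem176a, Tmem176b and Inmt, a methyltransferase gene at 1000 CPM against 444, and none was lower in either comparison. Apod lost its call without the cells rich in it, as above. The median ratios were 1.18 and 1.67. Of 12 genes known from progenitor-like fibroblasts, a list close to what defines the Pi16 class, 9 were called lower than in that class and 0 higher, with a median ratio of 0.386, among them Cd55, Cmah and Ackr3. Over Fmod fibroblasts 2 of 8 were higher (Ly6c1 and Ly6a, 1414 CPM against 582), with a median of 1.49.

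Genes that act on proenkephalin or its peptides did not pass the size rule beside Penk. Of 7 genes for enkephalin processing, breakdown and reception that entered, 0 were called over Fmod (median ratio 0.844) and 0 over Pi16 fibroblasts (0.944). Pcsk1, a convertase that cleaves proenkephalin, was at 0.558 CPM in Gdf10/Penk fibroblasts, 1.36 in Fmod and 0.401 in Pi16 fibroblasts, and the mu opioid receptor gene Oprm1 had 0 UMIs in all 3. The carboxypeptidase gene Cpe stood at 345 CPM, against 468 and 244, and Ctsl, the most abundant on the list, at 1569, against 1909 and 1623. Transcript counts do not measure peptides.

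Of 21 complement genes listed, 10 entered each class comparison. C3, the central component, had 2414, 2875 and 3302 CPM in Gdf10/Penk fibroblasts, against 1019, 1281 and 1809 in Fmod fibroblasts, and was the 1 of 10 called there (median ratio 1.53). Against Pi16 fibroblasts C2 was higher (268 CPM against 103) and Cd55 lower, 1 each of 10 (median 1.23). Serping1, which encodes the C1 inhibitor, was the most abundant uncalled gene, at 3101, 3104 and 2949 CPM in Gdf10/Penk, Fmod and Pi16 fibroblasts. Chemokine genes included Cxcl12, which holds haematopoietic and immune cells in place, at 1013, 1209 and 1371 CPM, against 393, 521 and 644 in Pi16 fibroblasts. Over Pi16 fibroblasts 2 of 11 chemokine genes were higher (Cxcl12 and Cxcl13) and 1 lower (Ackr3, median 1.20). Over Fmod fibroblasts 2 of 12 were higher, Cxcl13 and the eosinophil chemokine Ccl11 (312 CPM against 114), with a median of 1.19.

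Gdf10 is close to BMP3 and Bmper binds BMPs, and few of the listed BMP ligands, receptors and targets differed. Among ligands, Bmp4 was lower than in Fmod fibroblasts (135 CPM against 315), 1 of 3, and 0 of 4 were called over Pi16 fibroblasts (median ratios 0.543 and 0.661). Of 12 receptors and target genes, 0 were called in either comparison (0.901 and 0.993), and the target Id3 stood at 1189 CPM, against 1064 and 913. In the TGF-beta list, 2 of 16 were higher over Fmod fibroblasts (Fn1 and Postn) and 3 lower (Ccn2, at 507 CPM against 1400, Ccn5 and Thbs2), with a median of 0.720. Over Pi16 fibroblasts 0 of 16 were higher and 2 lower (Fn1 and Ccn5, median 0.754). Wnt modulators split, with Sfrp1 higher than in Fmod fibroblasts (337 CPM against 131) and Sfrp2 (1111 against 2300) and Frzb lower, of 7 (median 0.675). Over Pi16 fibroblasts Sfrp4 (459 against 1164) and Wnt2 (6.92 against 39.0) were lower, of 7 (median 1.01).

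Among interstitial collagens 1 of 15 was higher over Fmod (Col5a3, 62.8 CPM against 19.9) and 1 lower (Col12a1, median 0.921), and 1 of 14 lower over Pi16 fibroblasts (Col12a1, median 1.04). Col1a2 stood at 5430 CPM, against 7219 in Fmod and 5164 in Pi16 fibroblasts. Of 20 basement membrane genes 1 was lower over Fmod (Smoc1, 73.1 CPM against 160, median 0.930), and 0 of 19 were called over Pi16 fibroblasts (1.05). Small leucine-rich proteoglycans had 2 of 6 lower over Fmod (Aspn and Omd, median 0.643) and 1 of 6 lower over Pi16 fibroblasts (Aspn, 0.975). Of 19 elastic fibre genes, 3 were lower than in Pi16 fibroblasts and 0 higher (median 0.752). The 3 were the microfibril genes Fbn1 (240 CPM against 623) and Mfap5 (674 against 1592) and Ltbp2. Over Fmod fibroblasts Emilin2 was higher (81.0 against 24.7) and Mfap4 (520 against 1584) and Ltbp2 were lower, of 19 (median 0.921). Of 18 metalloproteinase and inhibitor genes, 0 were higher and 1 lower over Fmod (Adamtsl2, median 0.994), and over Pi16 fibroblasts 1 was higher (Adamts4, 75.1 against 32.3) and 1 lower (Adamts5, median 1.002).

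Growth factor, metabolic and regulatory lists held few calls. Of 9 insulin-like growth factor genes, Igfbp3 was higher in both comparisons and Igfbp5 lower than in Pi16 fibroblasts (1701 CPM against 4352), with medians of 0.986 over Fmod and 1.01 over Pi16 fibroblasts. Of 14 lipid genes, 2 were higher over Fmod (Lpl and Ebf2, a transcription factor of fat precursors, 100 CPM against 36.5, median 1.16) and 2 over Pi16 fibroblasts (Apod and Apoe, 2625 against 1237, median 1.11). Among 17 steroid, retinoid and xenobiotic genes Aldh1a3 was higher and Rbp4 lower over Fmod (median 0.967), and Inmt higher over Pi16 fibroblasts (1.14). The angiogenic and cytokine list had Kitl (stem cell factor, 77.3 CPM against 34.3) higher and Vegfd (180 against 587) lower over Fmod, of 17 (median 0.952), and Fgf18 lower over Pi16 fibroblasts (1.01).

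Axon guidance genes had Slit3 higher and Ntrk3 lower over Fmod, of 13 (median 0.736), and Nrp1 higher over Pi16 fibroblasts (378 CPM against 184), of 12 (1.11). Of 21 mesenchymal transcription factors Osr1 was higher (175 CPM against 81.4) and Heyl lower over Fmod (0.931), and Meox2 higher over Pi16 fibroblasts (82.0 against 37.8, median 1.10). Hox genes, which record position along the body axis, had 0 of 4 called in either comparison (0.814 and 0.971). Interferon response and MHC class I genes outside the p200 family had 0 of 8 called over Fmod (1.08), and 1 of 8, Ifi27l2a (154 CPM against 323), lower over Pi16 fibroblasts (1.06). Immediate early genes, which tissue dissociation induces, had 0 of 18 called in either comparison (0.981 and 1.15), with Fos at 5264 CPM, against 5607 and 4165.

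Within the Gdf10/Penk fibroblasts, 1 gene usually dominated the sum. Gdf10 had the most UMIs of the 6 in 2468 cells (58.8%, library range 51.8% to 66.3%), Penk in 616 (14.7%), C7 in 469 (11.2%) and Steap4 in 232 (5.53%). Cxcl14 led in 67 cells (1.60%), Col6a5 in 50 (1.19%), and 293 were tied. The genes were not exclusive, since cells led by C7 had 281 CPM of Penk and cells led by Penk had 511 CPM of C7, above the 242 CPM in cells led by Gdf10. Cells led by Steap4 had 8066 CPM of Apod, with library values from 183 to 19773, against 416 CPM in cells led by Gdf10.

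Cells led by C7 were compared with cells led by Penk by the same size rule, and 21 of 5149 genes were higher (0.408%) and 29 lower (0.563%). The higher genes with the largest ratios were Mfap4 (628 CPM against 131), Aqp1 (a water channel, 118 against 29.8), Mme (neprilysin, which degrades enkephalins among other peptides, 39.5 against 10.7), S100a4 (154 against 53.2), Sfrp2 (1518 against 609), Fez1 (149 against 59.2), Ccn2 (344 against 147) and Ltbp1 (337 against 144). Those lower in cells led by C7 included Igfbp3 (22.4 against 127), Apod (143 against 585), Myoc (64.5 against 272), Agt (angiotensinogen, 15.9 against 70.3), Rspo3 (12.7 against 46.3), Tmem176a (77.7 against 234), Trf (37.4 against 115) and Ifi205 (44.5 against 128). Of the 12 genes above both other classes, Igfbp3 and Cxcl13 were lower in cells led by C7. The median ratio of all genes was 1.01. With every barcode thinned to 3000 UMIs, 12 were higher and 17 lower, of which 6 and 10 were called with all UMIs too. Of the genes named here, Mfap4, Sfrp2, Ccn2, Rspo3 and Ifi205 kept their call after thinning, and the others lost it. The Aqp1 ratio was then 1.77, against 3.54 with all UMIs, the Mme ratio 1.68 against 2.83, the Fez1 ratio 1.42 against 2.40, the Myoc ratio 0.566 against 0.251 and the Tmem176a ratio 0.526 against 0.347. With doublets removed S100a4 and Trf were not called, and without barcodes of 50 or more Apod UMIs the Apod ratio was 0.589 and no longer called.

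The level of a gene in the class did not show how many cells carried it. For 210 cells, the top 5% for each gene, the share of the gene's UMIs was 16.9% for Gsn, 18.9% for Gdf10, 24.3% for Steap4, 28.9% for C7 and 36.9% for Penk, and 54.6% for Bmper. It was 85.1% for Sult1e1, 96.5% for Cxcl14, 97.3% for Col6a5, 96.3% for Myoc and 99.4% for Cxcl13, which was seen in 5.44% of the cells. Apod was seen in 51.0% of cells, yet 79.7% of its UMIs lay in 5% of them.

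**Figure D5:**
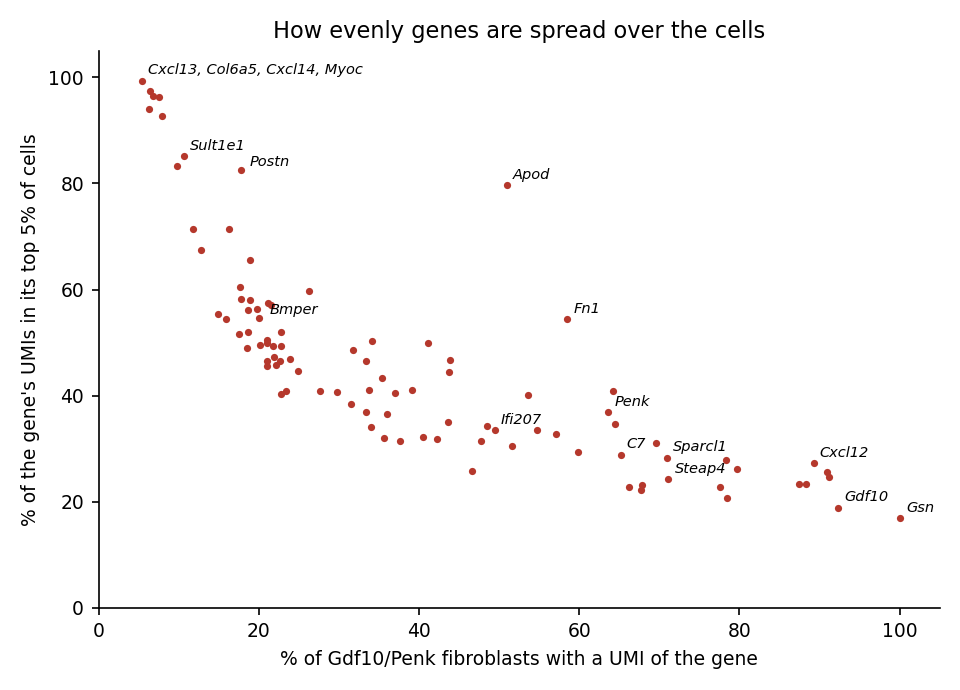
For genes named for Gdf10/Penk fibroblasts, the percentage of these cells with a UMI of the gene (across) and the percentage of its UMIs held by the 5% of cells with the most (up). Gdf10 and Gsn lie at the lower right, Cxcl13, Col6a5, Cxcl14 and Myoc at the upper left, and Apod at 51.0% and 79.7% lies off the run of the other genes.

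Cells rich in 3 of these genes were compared with the other Gdf10/Penk fibroblasts. A gene was called at a pooled ratio (5 CPM added) of at least 3 either way. The direction had to be the same in 6 of 6 libraries, but no single library had to reach 3. Only the gene that chose the group was left out, so genes of the rule and gate entered, unlike in the comparisons above. The cuts were set after the values had been seen, so the results are descriptions. A library needed only 5 cells of a group, below the 20 asked in the comparisons above. Library 6 held 12 cells rich in Cxcl14, 6 rich in Col6a5 and 5 rich in Apod, so its values rest on few cells. In the 181 cells with 2 or more Cxcl14 UMIs, which held 95.2% of its UMIs, 2 of 5305 genes were higher (0.0377%) and 5 lower (0.0943%). The higher ones were Col5a3 (90.8, 178 and 298 CPM, lowest, median and highest library, against 43.4, 53.7 and 72.6 in the other cells) and Vtn, which encodes vitronectin (83.4 CPM pooled against 18.7). Lower were Cytl1 (61.7 CPM against 351), Fmod (44.5 against 287), Hhip, Pax1 and Nkain4. Fmod and Hhip are in a sum of the rule. Schwann cell markers summed to 186 CPM in these cells, against 91.1 in the others, and their part was not tested.

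The 163 cells with 2 or more Col6a5 UMIs held 95.3% of its UMIs and had 12 of 5283 genes higher (0.227%) and 16 lower (0.303%). Grem1, a secreted BMP antagonist, had 46.6, 147 and 343 CPM in them, against 3.95, 13.9 and 21.2 in the other cells. Sult1e1 had 191, 557 and 916 CPM, against 39.5, 52.3 and 106. Hp (158 CPM pooled against 23.4), Igf1 (1568 against 311), Gpx3 (a secreted glutathione peroxidase, 2368 against 737) and the collagen VI chain Col6a6 (244 against 77.6) were also higher. Ccn2 (86.0 against 528), the tissue factor gene F3 (94.6 against 483), Mfap4 (111 against 541) and Timp3 (434 against 1616) were lower. These cells had 638 CPM of Sult1e1 pooled and the other cells 60.4, and they held 957 of the 2706 Sult1e1 UMIs of the class. Adipocyte markers summed to 76.6 CPM in these cells with 3 of 5 at 0, against 9.21 in the others, and their part was not tested.

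The 66 cells with 50 or more Apod UMIs held 67.2% of its UMIs, and 37 of them were led by Steap4. They differed most, with 52 of 5481 genes higher (0.949%) and 65 lower (1.19%). Gfra1, the receptor of the neurotrophic factor GDNF, had 22.9, 200 and 288 CPM in them, against 1.55, 2.76 and 3.93 in the other cells. Libraries 3 and 6 held only 5 of the 66 cells each, so the library lows rest on few UMIs. Rasgrp2 (391 CPM pooled against 18.9), Enpp2 (523 against 29.5), Abca6 (381 against 25.8), Trf (transferrin, 683 against 51.2), Thbs1 (962 against 91.9), Vwa1 (549 against 55.8), Col15a1 (1913 against 285) and Ccl11 (1803 against 282) were higher. Sfrp2 (63.3 against 1132), Mmp3 (78.2 against 860), Dpt (215 against 1382) and Fmo2 (360 against 2235) were lower. Dpt is a gene of the gate. In the 66 cells the 6 Schwann cell markers, of which Cdh19 alone was called (71.6 CPM against 3.01), summed to 210 CPM, against 93.7 in the others, and the 4 lymphatic endothelial markers to 63.3, against 20.6, with 1 of 4 at 0. The 5 perineurial markers summed to 29.96 CPM, against 23.7, and the part of these markers was not tested. C7 was called lower in the 66 cells (68.3 CPM against 394), and the 6 genes C7, Penk, Cxcl14, Gdf10, Col6a5 and Bmper summed to 1062 CPM, against 2273. All of these but Bmper are in the sum that chose the cells, so their levels are a description. All 5 adipocyte markers were at 0. Such cells made up 1.57% of Gdf10/Penk fibroblasts (interval 1.22% to 1.997%), 0.557% of Fmod and 0.268% of Pi16 fibroblasts. Among the 1042 gated cells without a leading sum they made up 1.82% (1.10% to 2.83%). The 3 groups shared few cells, with 7 in both the Col6a5 and Cxcl14 groups, 10 in Apod and Cxcl14 and 2 in Apod and Col6a5.

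Between libraries, most genes of the Gdf10/Penk fibroblasts were even. For 6498 genes with at least 50 UMIs in every library, the highest library was a median of 1.35 times the lowest, and 27 genes reached 3 (0.416%). That count was 15 without library 4 and 10 after thinning to 3000 UMIs. Myoc (myocilin) had the widest ratio of the named genes, 9.08, with 98.98, 204, 56.9, 86.9, 52.1 and 22.5 CPM in libraries 1 to 6. Lyz2, a lysozyme gene of macrophages, ran from 20.6 CPM in library 6 to 173 in library 4 (ratio 8.39), and summed macrophage markers from 43.5 to 298 CPM. Igfbp3 ran from 18.3 CPM in library 5 to 90.5 in library 4, and the fatty acid-binding protein gene Fabp4 from 131 in library 3 to 595 in library 4. Sult1e1 (42.0 to 150 CPM) and Sfrp4 (243 to 834) also reached a ratio of 3. Mir6236 had 56.4, 261, 175, 84.2, 49.6 and 186 CPM in libraries 1 to 6. Fmod fibroblasts had 44.9, 299, 184, 87.3, 46.8 and 205 and Pi16 fibroblasts 49.6, 239, 169, 85.8, 54.9 and 211, so this spread was not particular to the class. Fabp4 was highest in library 4 in Fmod fibroblasts too (386 CPM) and at 342 there in Pi16 fibroblasts. Myoc was highest in library 1 in Fmod (32.6) and in library 4 in Pi16 fibroblasts (98.7). None of these differences can be tied to a genotype.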

How the data were processed

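Aortic cells of 6 samples (3 Best3SMKO and 3 Best3FL/FL) were sequenced in 10x droplets, and the authors deposited their UMI counts, whole numbers with no scaling, in a matrix of 55450 genes by 60871 barcodes. Per the submitters' processing notes, bcl2fastq 5.01, Cell Ranger 3.1.0 and Seurat 3.1.1 were used with build GRCm38. Per the file headers, cellranger 6.1.2 wrote the matrix. Any equalising of depth between libraries is not given in these sources.

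Counts were summed over the barcodes of a class and library and given as CPM of that sum. Because library suffixes match no sample label, nothing was averaged over libraries as replicates, and the planned genotype test was not made. Intervals are exact 95% Poisson or binomial. Named genes were the 6 of the sum and Bmper, the 12 higher and 8 lower of largest ratio in each class comparison, genes higher in both, 8 each way between cells led by C7 and by Penk, up to 3 called and 1 uncalled gene a list, and the 5 widest library ratios. Unnamed transcripts and predicted genes were left out of them. Some results that this rule would name are not reported here. Members, lists and rule were chosen with earlier results of these data known. The p200 family, the cells rich in Cxcl14, Col6a5 or Apod, and other genes named were chosen after their values were seen.

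Coordinates are from GENCODE M21 and RefSeq. Alternatives were Scrublet (scanpy 1.11.5) doublets removed, stricter gates and sums, thinning to 3000 UMIs, other CPM limits and each library left out. The size rule was tested on simulated data. Sums were computed in Python 3.11.15 with scipy 1.17.1, numpy 2.4.6, pandas 2.3.3 and matplotlib 3.10.9.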

Additional observations from a re-analysis of the deposited data

How the results depend on the processing

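No paired analysis was possible because the libraries match no sample label, so no genotypes could be compared. Classes were compared within each library, by size and direction, with no test. Of 116 alternative values of shares and counts, 95 stayed within their limits and 21 moved. The share of Gdf10/Penk fibroblasts was 22.2% when sums had to reach 5 UMIs and 2 times each other sum, 31.9% after thinning, and 31.0%, 32.2%, 19.4% and 31.8% without C7, Penk, Gdf10 or Steap4 in the sum, and 34.6% to 37.5% without each library in turn. The stricter sums gave 96 genes higher and 77 lower over Fmod fibroblasts and 82 higher and 97 lower over Pi16 fibroblasts, and a limit of 10 CPM gave 104 and 64 higher. Without each library in turn these counts were 61 to 69 higher and 36 to 46 lower over Fmod, and 35 to 44 higher and 44 to 49 lower over Pi16 fibroblasts. Between cells led by C7 and by Penk, thinning left 12 higher and 17 lower, a limit of 10 CPM gave 37 higher, and leaving out libraries gave 19 to 34 higher (34 without library 2) and 27 to 35 lower. Genes with a library ratio of 3 numbered 10 after thinning, 14 with 100 UMIs required in every library and 15 to 26 without each library in turn, with 15 without library 4. Of 600 values for single genes, 559 kept their call, 41 lost it and 0 changed direction. Depth limits shares of cells: thinning lowered the share with a UMI to 5.07%, against 6.79%, for Cxcl14, and to 50.5%, against 65.1%, for C7.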

Other observations

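In libraries 1, 3 and 4, which held both kinds of cell, gated fibroblasts were split by sex-linked transcripts. Gdf10/Penk fibroblasts made up 28.7% of cells with Xist alone and 34.7% of cells with Y-linked UMIs alone in library 1, 47.3% and 38.3% in library 3, and 31.5% and 43.5% in library 4. The direction was not the same in the 3 libraries, and the labels give no sex. Cells with Xist alone numbered 1 in library 5 and 0 in libraries 2 and 6.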
